A study of Mus musculus with 2 samples.

Results

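Interferon gamma-expressing Th17 cells of the inflamed mouse colon are described here by setting Ifng-positive Th17 cells against Ifng-negative Th17 cells of the same mice. The cells were chosen by their label and by their own Ifng counts. Of 18860 deposited T cells, 2221 carried the authors' Th17 label, and 2206 of these had the 1500 unique molecular identifiers (UMIs, each standing for 1 captured RNA molecule) to which every cell was thinned. A cell with 1 or more Ifng UMIs after thinning was called positive, which gave 832 Ifng-positive and 1374 Ifng-negative cells. The study transferred CD4 T cells into Rag-/- mice, which have no T or B cells of their own, and sorted cells that stained for both TCRb and CD4 from the colon. WT-labelled mice received wild-type cells that were high for CD45RB and lacked CD25. KO-labelled mice received BCL-6-deficient CD4 T cells. The age of the mice and how Bcl6 was deleted are not given in the sources used here, and donors of the transferred cells are not named. The 12 mice, 6 of each label, were tagged with hashtag antibodies and pooled in 1 library of 5′ chemistry, so that both labels share that library.

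Th17 cells are helper T cells that release interleukins 17A, 17F and 22, which act on epithelium and recruit neutrophils. Under interleukin 23 and interleukin 12, Th17 cells can begin to make interferon gamma, the signature cytokine of Th1 cells, together with the Th1 transcription factor T-bet (Tbx21). Such cells are well known from colitis caused by transferred T cells, where they are counted among the pathogenic cells.

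Bcl6 UMIs were not lower in KO-labelled mice. In Th17 cells Bcl6 stood at 133 to 247 CPM (UMIs scaled to a common total per mouse) under the KO label and at 61.2 to 126 CPM under the WT label. Where reads of a 5′ library lie outside the deleted part of a gene, its count does not test a label, and the genotypes are therefore called by their labels throughout. The Th17 label went with Il17a, which had a UMI in 28.9% of Th17 cells of KO-labelled mice and 19.0% of WT-labelled mice, against 0.273% and 0.143% of cells labelled cytotoxic. The authors' label may itself rest on expression in these cells, so these shares describe it and do not test it. The UMIs summed per mouse and side ranged from 43370 to 417000. Of the 12 mice, 11 had 20 or more cells on each side and entered the gene tests, 5 KO-labelled and 6 WT-labelled, with 822 positive and 1340 negative cells. KO-labelled mouse 2 had 10 positive cells and was left out of them.

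The split rested on few molecules per cell. Of the 832 positive cells, 382 held exactly 1 Ifng UMI, 182 held 2 and 268 held 3 or more, and the highest count was 41. On the other side of the threshold, 301 of the 1374 negative cells (21.9%) had held an Ifng UMI before thinning. These 2 sets of cells lie just inside and just outside the cut, and a negative cell is therefore a cell with little or no Ifng RNA and not one shown to lack it. Regulatory T cells had the lowest Ifng-positive shares after thinning, 16.8% (38 of 226 cells) under the KO label and 7.14% (8 of 112) under the WT label. Their median depths were 2591 and 2892 UMIs, against 3163 and 3475 in Th17 cells, and the Th17 shares of 50.7% and 33.3% stood above both.

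The promoter sequences of Ifng and of the cytokine genes that the comparison turns on are shown because these genes were read side by side in the same cells. Each run holds the 250 bases before the start of the gene on its own strand, from RefSeq (GRCm38.p6), whose starts can differ from those of the GENCODE gene models given here. Capitals mark matches on either strand to TGANTCA (the AP-1 motif), GGAAA (the NFAT core) and AGGTGT (the T-box core). Ifng lies on chromosome 10 (118441046 to 118445892, plus strand, GRCm38) and Il22 on the same chromosome (118204942 to 118210047, plus strand), with 231 kb between them. Csf2 lies on chromosome 11 (54247271 to 54249667, minus strand) and Il17a on chromosome 1 (20730905 to 20734496, plus strand).
Ifng, chr10:118440796-118441045: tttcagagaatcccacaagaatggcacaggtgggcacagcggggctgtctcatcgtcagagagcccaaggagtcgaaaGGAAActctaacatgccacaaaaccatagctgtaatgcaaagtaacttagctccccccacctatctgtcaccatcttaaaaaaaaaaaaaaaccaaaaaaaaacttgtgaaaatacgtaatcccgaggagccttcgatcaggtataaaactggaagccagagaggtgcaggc
Il22, chr10:118204714-118204963: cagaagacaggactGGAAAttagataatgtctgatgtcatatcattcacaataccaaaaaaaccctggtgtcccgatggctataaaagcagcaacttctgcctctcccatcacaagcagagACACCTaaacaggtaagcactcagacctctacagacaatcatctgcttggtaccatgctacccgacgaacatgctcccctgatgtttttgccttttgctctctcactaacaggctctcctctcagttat
Csf2, chr11:54249900-54250149: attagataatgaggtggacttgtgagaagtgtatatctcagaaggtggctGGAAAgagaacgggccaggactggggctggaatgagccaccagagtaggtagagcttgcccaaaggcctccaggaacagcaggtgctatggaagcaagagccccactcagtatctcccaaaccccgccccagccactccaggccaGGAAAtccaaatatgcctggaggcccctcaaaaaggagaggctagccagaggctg
Il17a, chr1:20730655-20730904: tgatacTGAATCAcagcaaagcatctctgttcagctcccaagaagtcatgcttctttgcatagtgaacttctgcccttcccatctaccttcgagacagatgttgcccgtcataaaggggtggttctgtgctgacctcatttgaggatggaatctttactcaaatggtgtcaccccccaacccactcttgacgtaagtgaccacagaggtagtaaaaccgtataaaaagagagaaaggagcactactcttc
The Ifng run held 1 match to the NFAT core, that of Il22 held 1 match to the NFAT core and 1 to the T-box core, and that of Csf2 held 2 matches to the NFAT core. The Il17a run held 1 AP-1 match. Over 32536 distinct promoter sequences of this length, 55.7% held the NFAT core, 11.9% the T-box core and 6.73% the AP-1 motif, so a match describes the letters and no more.

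The share of Th17 cells that were Ifng-positive was larger under the KO label. The positive cells themselves were fewer, 283 of 558 under the KO label and 549 of 1648 under the WT label. The share was 52.8%, 22.7%, 47.1%, 67.4%, 41.4% and 53.4% in KO-labelled mice 1 to 6. In WT-labelled mice its lowest value was 28.7%, its median 33.8% and its highest 37.1%. KO-labelled mouse 2, with 44 Th17 cells, lay below every WT-labelled mouse and the other 5 KO-labelled mice lay above all of them. The means were 47.5% ± 14.9 and 33.5% ± 3.39 (SD over 6 mice, p = 0.0476 by an exact test over all assignments of mice to labels, and 0.0476 adjusted for the 3 shares tested). This call was narrow. Leaving out any 1 mouse other than KO-labelled 2 and 5 took the adjusted p over the threshold (exact test, up to 0.0931), while without KO-labelled mouse 2 the difference grew from 13.9 to 18.9 percentage points (adjusted p = 0.00325). Without thinning the means were 62.7% ± 11.5 and 46.3% ± 4.26 (exact p = 0.0108, adjusted p = 0.0152).

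Il17a and the pair of cytokines showed the same direction. Cells with an Il17a UMI made up 28.9% ± 6.19 of Th17 cells under the KO label and 18.7% ± 3.43 under the WT label (SD over 6 mice, exact p = 0.0130, adjusted p = 0.0195). Cells with both Ifng and Il17a UMIs made up 14.3% ± 6.44 and 6.13% ± 1.54 (exact p = 0.00649, adjusted p = 0.0195). The double-positive share ran from 6.82% to 24.7% under the KO label and from 3.59% to 7.73% under the WT label, and only KO-labelled mouse 2 fell within the WT-labelled range.

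**Figure D1:**
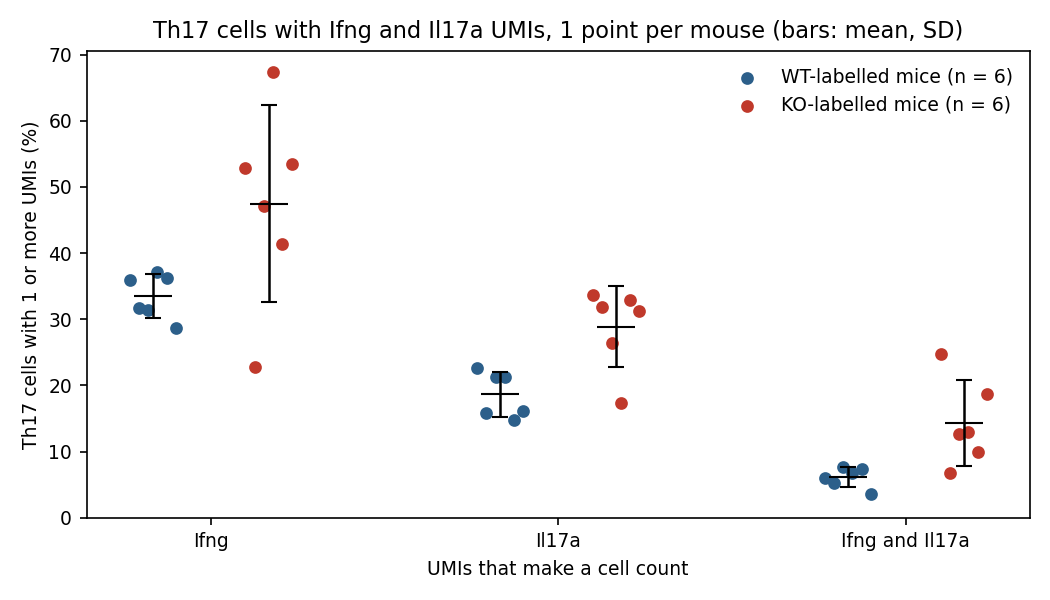
Percent of Th17 cells, thinned to 1500 UMIs, with UMIs of Ifng, Il17a or both, by genotype label. Each point is a mouse, and bars give the mean and SD over 6 mice. For Ifng, 5 KO-labelled mice sit above the WT-labelled range of 28.7% to 37.1% and KO-labelled mouse 2 sits at 22.7%.

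The share of cells with Il17a did not pass a test between Ifng-positive and Ifng-negative cells. Of the 2206 cells, 184 held both, 290 of the 474 Il17a-positive cells held no Ifng UMI, and 1084 held neither. Il17a had a UMI in 23.8% ± 9.79 of Ifng-positive and in 21.6% ± 7.77 of Ifng-negative cells (SD, n = 11 mice, 2.14 ± 11.3 percentage points higher, exact paired p = 0.575, adjusted p = 0.655 over 10 genes). The share was higher on the positive side in 7 mice and lower in 4. In KO-labelled mice 1, 3, 4, 5 and 6 it was 46.8%, 26.8%, 19.4%, 24.1% and 35.1% among Ifng-positive cells, against 19.0%, 26.1%, 13.3%, 39.0% and 26.8% among Ifng-negative cells. In WT-labelled mice it ran from 12.5% to 24.6% and from 11.6% to 26.1%, so the sides overlapped throughout.

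None of the 10 genes whose shares of positive cells were compared passed after adjustment. Csf2, encoding the cytokine GM-CSF, came nearest on the higher side, with UMIs in 11.4% ± 4.58 of Ifng-positive and 7.34% ± 4.59 of Ifng-negative cells (SD, n = 11, higher in 8 mice, exact paired p = 0.0215, adjusted p = 0.176). Ccr6, the chemokine receptor that marks Th17 cells, was found in 0.955% ± 1.03 against 3.30% ± 3.1 (higher in 2 mice and lower in 7, exact paired p = 0.0352, adjusted p = 0.176). For Ccr6 the difference between sides was 0.26 ± 1.78 percentage points under the KO label and -4.51 ± 1.95 under the WT label (SD, exact permutation p = 0.00866, adjusted p = 0.0866). The T-bet gene Tbx21 was found in 5.14% ± 2.46 against 3.45% ± 2.75 (exact paired p = 0.15, adjusted p = 0.376).

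The UMI sums of 180 of the 2914 genes tested (6.18%) differed between the sides, 67 higher (2.3%) and 113 lower (3.88%) in Ifng-positive cells, with the mouse as a block and Ifng itself left out. The higher genes included Il2ra, Anxa2, Vim, Nkg7 and Csf2. Of the 113 lower genes 62 were ribosomal protein genes, and Zfp36l2, Vps37b and Tcf7 were among the others. Without the UMIs of ribosomal protein genes, 85 genes passed, 45 higher and 40 lower. That setting removes the 62 ribosomal falls by construction, and rises went from 67 to 45. Without thinning, 345 genes passed, 168 of them higher and 177 lower, and without the block on mice 62 passed, 31 in each direction.

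Il2ra, Ccr1 and Icam1 were among the 12 largest rises. Il2ra, the alpha chain of the interleukin 2 receptor (CD25), stood at 98.5, 140 and 222 CPM (lowest, median and highest of 11 mice) in Ifng-negative and at 184, 259 and 484 CPM in Ifng-positive cells. It was higher on the positive side in all 11 mice, although the ranges of the sides overlapped, with a log2 fold change of 0.79 ± 0.13 (SE, adjusted p = 3.61e-05). Ccr1, a receptor for inflammatory chemokines, was at 7.75, 63.1 and 114 CPM against 35.8, 103 and 248 CPM (0.86 ± 0.20, adjusted p = 0.00319, higher in 11 of 11). Ccr1 did not pass in the other 2 random draws of the thinning (0.59 and 0.56, adjusted p = 0.0830 and 0.122). Icam1, the adhesion molecule that binds LFA-1, rose by a log2 fold change of 0.49 ± 0.12 (adjusted p = 0.00776), from a median of 179 to 252 CPM, and lost its call without WT-labelled mouse 1 (adjusted p = 0.0536).

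Serpine2 had the highest fold change among the genes that moved the same way in all 11 mice. It encodes a secreted inhibitor of serine proteases (protease nexin 1). It was at 0, 8.13 and 37.6 CPM in Ifng-negative and at 23.1, 53.7 and 280 CPM in Ifng-positive cells, a log2 fold change of 2.25 ± 0.35 (adjusted p = 1.13e-05). The counts behind it were small, 26 UMIs on the negative and 92 on the positive side, and in 1 other random draw the value was 1.08 with an adjusted p of 0.0506. The UMIs on the positive side came from 24 cells of KO-labelled and 32 cells of WT-labelled mice, none with more than 4.

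Anxa2, S100a4, Vim, Lgals1, Capg and Ccng1 were also among the 12. Anxa2 (annexin A2, a membrane-binding protein) was at 161, 198 and 422 CPM against 248, 352 and 590 CPM (0.72 ± 0.11, adjusted p = 7.95e-06). S100a4 (a calcium-binding protein of motile and effector cells) rose from a median of 396 to 587 CPM (0.48 ± 0.08, adjusted p = 5.64e-05). Vim, encoding the intermediate filament vimentin, went from 1569 to 2127 CPM, and Lgals1, encoding galectin 1, from 1405 to 1921 CPM (0.38 ± 0.05 and 0.37 ± 0.05, adjusted p = 1.38e-06 and 7.46e-06). Capg, an actin-capping protein, rose by 0.32 ± 0.09 (adjusted p = 0.0140), and Ccng1, cyclin G1, by 0.52 ± 0.16 (adjusted p = 0.0376). Each of these 6 genes was higher in the positive cells of all 11 mice. Ccng1 passed in neither other random draw (adjusted p = 0.482 and 0.125), nor without KO-labelled mouse 4 or WT-labelled mouse 1, 4 or 6 (up to 0.165).

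Of the panel of Th17 and cytokine genes, Il22 and Csf2 rose. Il22, encoding the epithelial repair cytokine interleukin 22, stood at 407, 1711 and 6016 CPM in Ifng-negative and at 1528, 2473 and 5985 CPM in Ifng-positive cells. It rose by a log2 fold change of 0.49 ± 0.11 (adjusted p = 0.00142) and was higher in 8 of 11 mice. Csf2 was at 0, 115 and 733 CPM against 29.8, 323 and 2183 CPM (1.26 ± 0.19, adjusted p = 1.18e-05, higher in 8 of 11). Both sets of values overlapped widely. Single cells held a large part of some sums: of 300 Csf2 UMIs in positive cells of KO-labelled mice, 111 (37.0%) came from 1 cell, and of 218 in WT-labelled mice, 32 (14.7%). Il22 was found more widely, in 25.2% of positive and 21.4% of negative cells. Of 714 Il22 UMIs in negative cells of KO-labelled mice, 221 (31.0%) came from 1 cell. The top cell held 12.2% of those in positive cells of KO-labelled mice. In negative and positive cells of WT-labelled mice it held 3.47% and 5.29%.

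Of the 20 panel genes, 13 were abundant enough to be tested, and Il22 and Csf2 were the 2 that passed. Il17a was at 372, 823 and 1155 CPM against 341, 931 and 3298 CPM, with a log2 fold change of 0.27 ± 0.16 (adjusted p = 0.453, higher in 6 of 11 mice). Values were -0.10 ± 0.06 for Rora, a nuclear receptor of Th17 cells, and -0.26 ± 0.28 for Il23r, the interleukin 23 receptor (adjusted p = 0.454 and 0.754). Il12rb2, the receptor chain for interleukin 12, was at 0.51 ± 0.17 and higher in 10 of 11 mice (adjusted p = 0.0721). Il12rb2 passed in 6 of 27 alternatives, among them those without KO-labelled mouse 1 or WT-labelled mouse 2 (adjusted p = 0.0101 and 0.0495), at values of 0.49 to 0.76. It also passed in the later fit of Th17 and cytotoxic cells together, at 0.52 ± 0.16 in Th17 and 0.47 ± 0.11 in cytotoxic cells (adjusted p = 0.0428 and 0.00464). Fitted under the WT label alone, Il12rb2 passed at 0.66 ± 0.18 (adjusted p = 0.0172). Under the KO label alone it did not, at 0.21 ± 0.32 (adjusted p = 0.873). The difference between labels did not pass for Il12rb2 (adjusted p = 0.978). Ccl5, a chemokine of effector T cells, was at 0.39 ± 0.13 (adjusted p = 0.0547, and as low as 3.19e-05 among cells of 2500 to 4500 UMIs). Fitted under the WT label alone, Ccl5 rose by 0.57 ± 0.11 (adjusted p = 2.67e-04). Under the KO label alone it was at -0.23 ± 0.22 (adjusted p = 0.761). The difference between labels did not pass for Ccl5 either (adjusted p = 0.534). Gzmb, granzyme B, was at 0.19 ± 0.08 (adjusted p = 0.239), although both other random draws called it higher (0.41 and 0.41, adjusted p = 0.0101 and 3.8e-04). Tnf was at 0.59 ± 0.22 (adjusted p = 0.125), Nr4a1, an early gene of T cell receptor signals, at 0.0026 ± 0.068 (adjusted p = 0.996), Il17f at 0.61 ± 0.55 (adjusted p = 0.684) and Il2 at -0.86 ± 0.48 (adjusted p = 0.422). Il2 passed as lower when cells were thinned to 2000 UMIs (-1.44, adjusted p = 0.0148), in 1 other draw and without thinning. Its CPM was higher in 5 mice and lower in 5, KO-labelled mouse 6 held 25 of its UMIs on the negative and 0 on the positive side, and without that mouse the value was -0.02 (adjusted p = 0.992).

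The other 7 panel genes fell under the filter on low counts of this fit and were not tested in it. The later fit of Th17 and cytotoxic cells together, in which more genes pass the filter, held 3 of them, and none passed in Th17 cells (Tbx21 0.87 ± 0.34, Ccl4 1.45 ± 0.74 and Ccl3 3.19 ± 1.17, adjusted p = 0.180, 0.384 and 0.131). Summed over the 11 mice, the negative and positive sides held 43 and 53 UMIs of Tbx21, 72 and 8 of Ccr6, 12 and 38 of Ccl4, and 1 and 14 of Ccl3, the last 2 being chemokines of activated T cells. They held 8 and 17 UMIs of Il21, 4 and 9 of Irf8 and 2 and 0 of Il10. The negative side held more cells, so the 72 Ccr6 UMIs there correspond to a median of 23.3 CPM over mice and the 8 on the positive side to 5.10 CPM. Ccr6 CPM was lower on the positive side in each WT-labelled mouse. Each KO-labelled mouse held 0 or 1 Ccr6 UMI on a side, so the fall was one of WT-labelled mice.

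Zfp36l2, an RNA-binding protein that promotes the decay of messenger RNAs including those of cytokines, had the largest fall of the 12 named, each of which was lower in all 11 mice. It was at 324, 566 and 878 CPM in Ifng-negative and at 151, 316 and 424 CPM in Ifng-positive cells, a log2 fold change of -0.81 ± 0.11 (adjusted p = 3.24e-06). Vps37b, a subunit of the ESCRT-I sorting complex, fell from a median of 1094 to 876 CPM (-0.47 ± 0.06, adjusted p = 1.38e-06). Igtp, an interferon-induced GTPase, fell from 89.4 to 65.2 CPM (-0.62 ± 0.18, adjusted p = 0.0258). Igtp lost its call when any 1 of 4 mice was left out, with adjusted p up to 0.0744 (KO-labelled 1 and 6, WT-labelled 3 and 5).

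The other 9 of the 12 falls named by size were ribosomal protein genes, each lower in all 11 mice by a small amount. Rps18 fell by 0.31 ± 0.04 on the log2 scale and Rpl18 by 0.27 ± 0.03 (adjusted p = 5.33e-06 and 1.38e-06). Rps19, Rplp1, Rpl30, Rpl17, Rpl32 and Rpl23 lay between -0.26 and -0.24. As a group, chosen after these values were seen, 62 of 79 ribosomal protein genes tested passed as lower and 0 as higher, with a median of -0.18 beside 0.0051 over all genes tested. Their share of a cell's UMIs was 22.6% ± 1.94 in Ifng-negative and 20.4% ± 1.52 in Ifng-positive cells (SD, lower in 11 of 11 mice, exact paired p = 9.77e-04, the smallest that 11 mice can give).

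**Figure D2:**
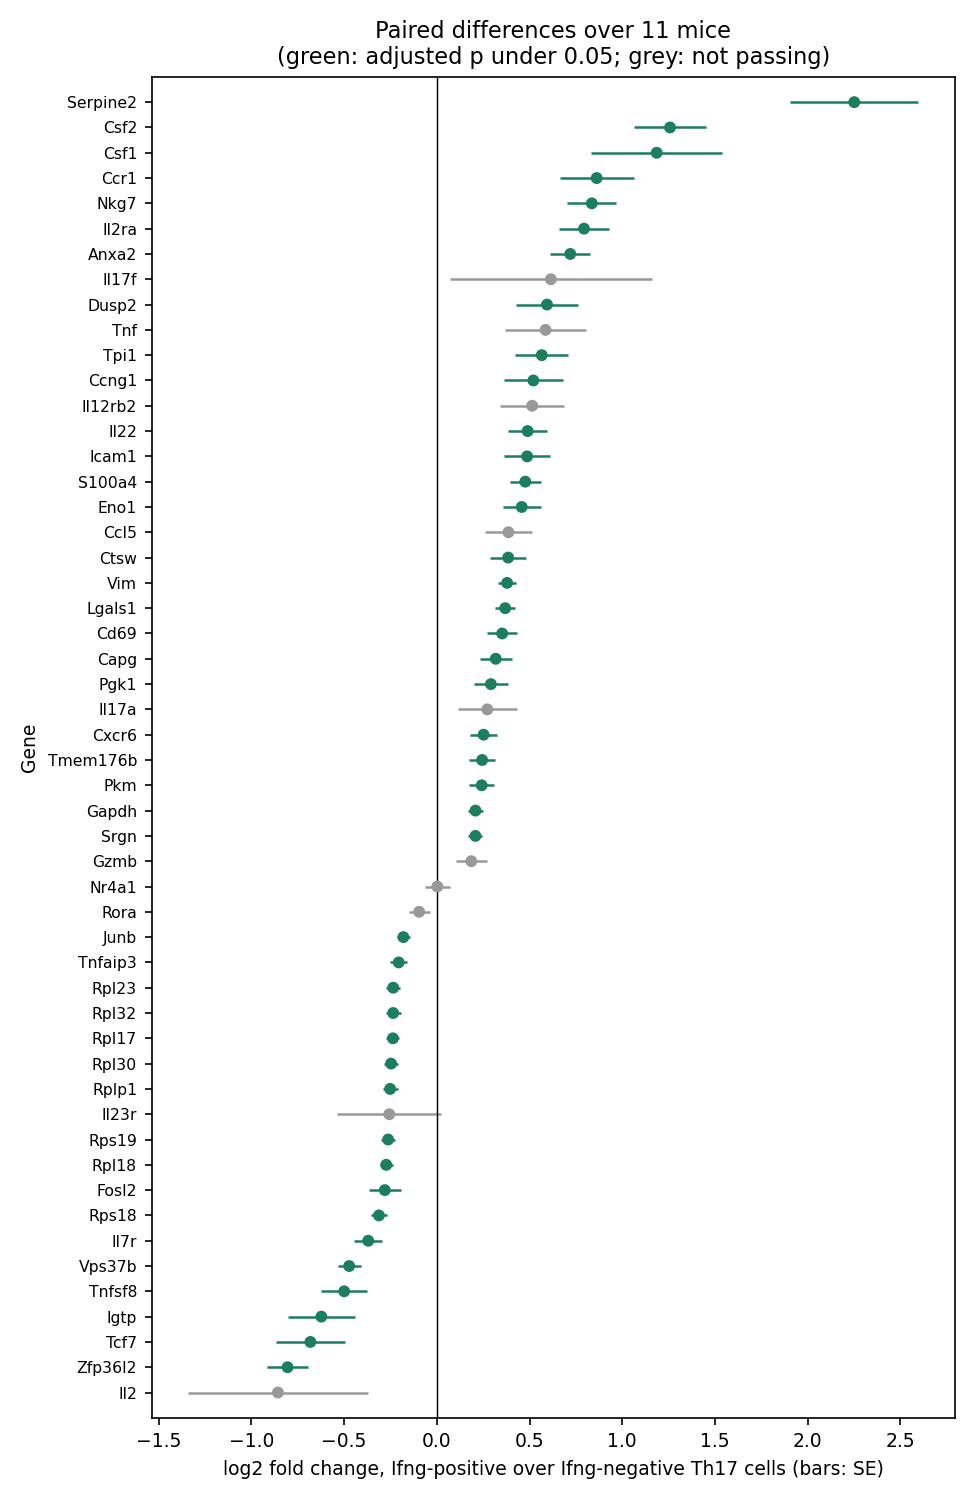
Log2 fold change between Ifng-positive and Ifng-negative Th17 cells for the tested genes of the panel, the named rises and falls, and list members that passed, except genes not reported here, with the SE from the paired fit over 11 mice. Green points passed at an adjusted p under 0.05. Serpine2 lies highest at 2.25, and Il17a, at 0.27, is grey.

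**Figure D3:**
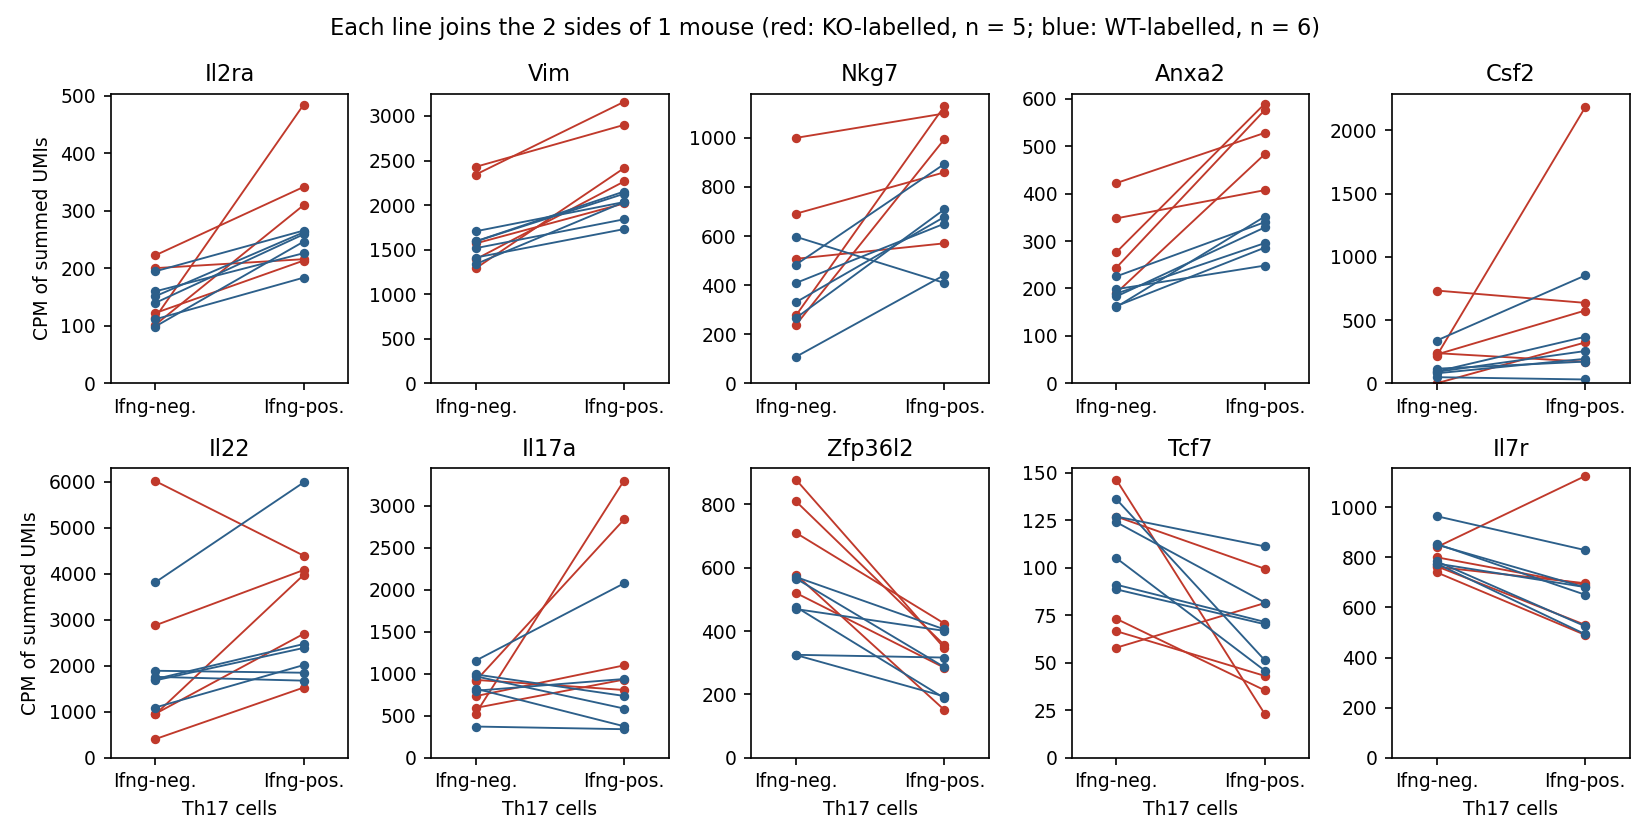
CPM of 10 genes in Ifng-negative and Ifng-positive Th17 cells, with a line for each mouse (5 KO-labelled in red, 6 WT-labelled in blue). All 11 lines rise for Il2ra, Anxa2 and Vim and fall for Zfp36l2, whereas 6 of 11 rise for Il17a.

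Over all genes tested 2.3% rose and 3.88% fell, so 0 or 1 call in a short list lies near these shares. Among the 13 lists of related genes, the glycolysis list held the most rises. Of its 13 tested members 5 rose and 0 fell, and 12 had a positive fold change, with a median of 0.22 beside 0.0051 over all genes. Tpi1 (triosephosphate isomerase) rose by 0.57 ± 0.14, Eno1 (enolase) by 0.46 ± 0.10, Gapdh by 0.21 ± 0.04 and Pkm (pyruvate kinase) by 0.24 ± 0.07 (adjusted p = 0.00776, 0.00231, 1.23e-04 and 0.0204). Tpi1 did not pass in 1 other random draw (0.29, adjusted p = 0.364).

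The Th1 and cytotoxic lists had 3 rises each and no falls, of 14 and 8 tested, with medians of 0.22 and 0.28. Nkg7, a protein of cytotoxic granules that belongs to both lists, was at 108, 409 and 1000 CPM in Ifng-negative and at 409, 709 and 1130 CPM in Ifng-positive cells (0.84 ± 0.13, adjusted p = 1.54e-05, higher in 10 of 11 mice). Cxcr6, a chemokine receptor of tissue T cells, rose by 0.25 ± 0.07 (adjusted p = 0.0245), Ctsw (cathepsin W) by 0.38 ± 0.10 (adjusted p = 0.00776) and Srgn (serglycin, which packs granules) by 0.21 ± 0.04 (adjusted p = 1.34e-04). In the Th17 list 2 of 17 tested genes rose, Il22 and Tmem176b, an ion channel of Th17 cells (0.24 ± 0.07, adjusted p = 0.0191), and 0 fell (median 0.16). In the cytokine list 2 of 10 rose, Csf2 and Csf1, the macrophage growth factor M-CSF (1.19 ± 0.35, adjusted p = 0.0298).

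Genes of stem-like and memory T cells lay lower. Of 6 tested, 2 fell and 0 rose, with a median of -0.36. Tcf7, the transcription factor TCF-1 that maintains stem-like T cells, was at 58.0, 105 and 146 CPM against 23.1, 70.3 and 111 CPM (-0.68 ± 0.19, adjusted p = 0.0148, lower in 10 of 11 mice). Il7r, the receptor for the survival cytokine interleukin 7, was at 740, 784 and 964 CPM against 490, 680 and 1124 CPM (-0.37 ± 0.08, adjusted p = 6.82e-04, lower in 10 of 11). KO-labelled mouse 3 was the exception for both genes.

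Receptor-signal and early response genes were divided, with 2 rises and 3 falls among 25 tested and a median of -0.0018. Cd69, an early surface marker of activation, rose by 0.35 ± 0.08 and Dusp2, a phosphatase induced by activation, by 0.59 ± 0.17 (adjusted p = 0.00223 and 0.0215). Junb and Fosl2, members of the AP-1 family, and Tnfaip3, an inhibitor of NF-kappaB signalling, fell by 0.18 ± 0.04, 0.28 ± 0.09 and 0.21 ± 0.05 (adjusted p = 4.7e-04, 0.0383 and 0.00166). Of the remaining lists, the one of TNF family ligands and costimulatory receptors had 1 fall among 9 tested, Tnfsf8 (CD30 ligand, -0.50 ± 0.12, adjusted p = 0.00543), and the interferon-stimulated list had 1 fall among 10, Igtp. No member passed among 5 chemokines, 4 inhibitory receptors, 10 heat shock genes and 1 cell cycle gene tested. For lists this short, that lies near the 6.18% of all genes tested that passed. In the later fit of both clusters, 2 chemokines passed as higher in Th17 cells, Ccl5 (0.40 ± 0.12, adjusted p = 0.0286) and Xcl1 (4.49 ± 0.88, adjusted p = 2.75e-04). In the fits of Th17 cells by label, Ccl5 passed under the WT label only. Xcl1 had 2 UMIs on the negative and 37 on the positive side. Its CPM was higher on the positive side in 5 mice and lower in 0. The positive-side median over mice was 0 CPM, the mean 33.9 CPM and the highest value 319 CPM, so the rise of Xcl1 rested on few mice. The inhibitory receptor Lag3 passed in the later fit too (0.92 ± 0.27, adjusted p = 0.0317).

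Some genes shifted stepwise with the number of Ifng UMIs and others did not. Averaged over 11 mice, Nkg7 stood at 446 ± 251, 578 ± 156, 753 ± 370 and 942 ± 409 CPM (SD) in cells with 0, 1, 2 and 3 or more Ifng UMIs. Lgals1 stood at 1423 ± 161, 1735 ± 390, 1858 ± 574 and 2243 ± 467 CPM and S100a4 at 416 ± 66.9, 504 ± 170.1, 549 ± 146 and 701 ± 217 CPM. Zfp36l2 went the other way, with 566 ± 177, 354 ± 122, 313 ± 201 and 225 ± 123 CPM. Cells with 1 UMI thus lay between the negative cells and those with more for these genes, although neighbouring classes overlapped within their SD. Other genes showed no such order. Il2ra was at 147 ± 42.9, 257 ± 111, 206 ± 105 and 318 ± 171 CPM and Cd69 at 593 ± 137, 823 ± 311, 769 ± 366 and 775 ± 270 CPM. Csf2, Anxa2 and Gzmb were not in step with the classes either. Serpine2 was flat above 0, with 10.4 ± 10.7 CPM in cells without Ifng and 74.8 ± 82.9, 73.4 ± 77.1 and 78.4 ± 101 CPM in the other classes. These classes are given as a description, and the classes of 2 and of 3 or more UMIs held as few as 5 cells in a mouse.

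**Figure D4:**
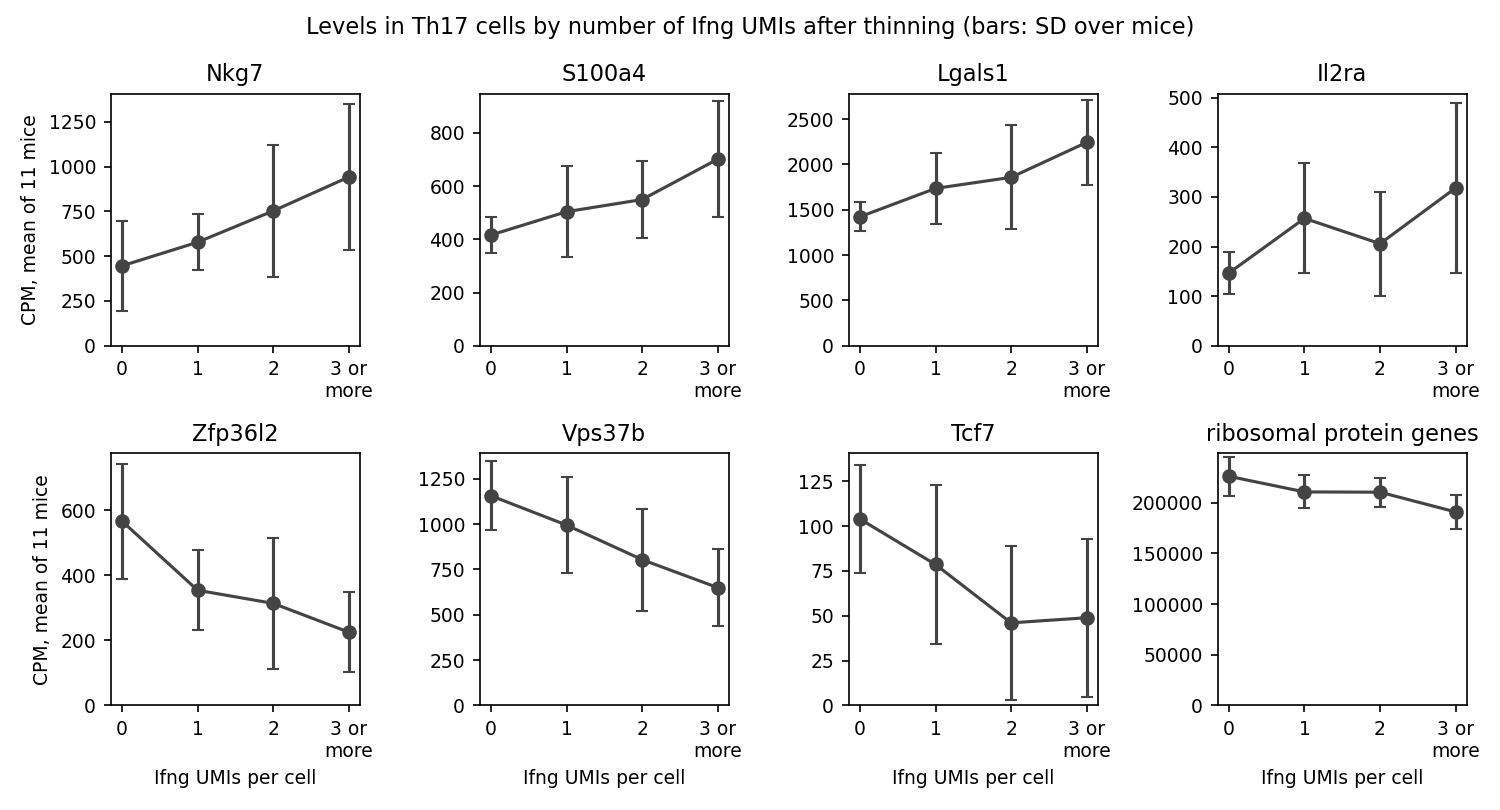
Mean CPM over 11 mice of 7 genes and of the ribosomal protein genes together, in Th17 cells with 0, 1, 2 and 3 or more Ifng UMIs after thinning, with the SD over mice. Nkg7 lies at 446 CPM without Ifng and at 942 CPM with 3 or more UMIs, and Zfp36l2 at 566 and 225 CPM.

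Splitting the cells by both cytokines separated the genes further. Il22 was highest in cells with both Ifng and Il17a, at 5893 ± 2677 CPM (SD over 11 mice), followed by 3020 ± 2465 with Il17a alone, 2076 ± 1484 with Ifng alone and 1897 ± 2027 with neither. Csf2 instead followed Ifng, at 437 ± 483 CPM with both and 561 ± 794 with Ifng alone, against 167 ± 286 with Il17a alone and 203 ± 234 with neither. Nkg7 was lowest in cells with Il17a alone, at 333 ± 379 CPM, and highest with Ifng alone, at 830 ± 293 CPM. Ccr6 was at 52.8 ± 56.5 CPM with Il17a alone and 5.05 ± 16.8 with both. The SDs are as large as many of these differences, which were not tested. The class with Il17a alone held as few as 4 cells in a mouse and the class with both as few as 7.

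Across cells, the genes whose counts ranked most like Ifng were Nkg7, Lgals1, Actb, Pfn1 and Srgn. Their Spearman correlations with Ifng, averaged over 11 mice among 1988 genes found in 10% or more of cells, were 0.195, 0.189, 0.166, 0.154 and 0.153. The lowest were -0.172 for Zfp36l2 and -0.171 for Rpl37a. Cells of a mouse share a library and a depth after thinning, and values of this size describe a weak tendency in sparse counts.

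Within genotypes, 34 of 1419 genes tested (2.4%) passed in the 5 KO-labelled mice, 20 higher and 14 lower, and 160 of 3413 (4.69%) in the 6 WT-labelled mice, 58 higher and 102 lower. With DESeq2 size factors the split in KO-labelled mice was 18 higher and 19 lower. Leaving out KO-labelled mouse 1, 5 or 6 brought the count in KO-labelled mice to 19, 22 and 15. Most named genes had the same sign under both labels. Il2ra was at 0.96 ± 0.25 and 0.73 ± 0.16 in KO-labelled and WT-labelled mice, Anxa2 at 0.81 ± 0.18 and 0.67 ± 0.14, Csf2 at 1.41 ± 0.29 and 1.15 ± 0.25, and Zfp36l2 at -1.16 ± 0.18 and -0.62 ± 0.13 in the fit with a term for genotype. In the test of the difference itself these genes had adjusted p from 0.796 to 0.985.

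The contrast differed between genotypes for 3 of 2914 genes (0.103%), and each of these calls was lost when at least 1 single mouse was left out. Il17a was higher in Ifng-positive cells of KO-labelled mice (1.18 ± 0.21) and not of WT-labelled mice (-0.21 ± 0.16), a difference of 1.39 ± 0.27 (adjusted p = 0.00554). In KO-labelled mice 1, 3, 4, 5 and 6 it went from 524, 913, 733, 927 and 593 CPM in Ifng-negative to 3298, 2835, 1099.5, 807 and 931 CPM in Ifng-positive cells. In WT-labelled mice 1 to 6 it went from 798, 992, 1155, 970.0, 372 and 823 CPM to 938, 736, 2075, 586, 341 and 376 CPM. The gap was widest in KO-labelled mice 1 and 3, and without either the difference did not pass (0.98, adjusted p = 0.167, and 1.27, adjusted p = 0.0926). The share of cells with an Il17a UMI did not show it: the difference between sides was 5.58 ± 15.3 percentage points under the KO label and -0.73 ± 6.88 under the WT label (SD, exact permutation p = 0.407, adjusted p = 0.991 over 10 genes). Of the 674 Il17a UMIs in positive cells of KO-labelled mice, 106 came from 1 cell and 37.8% from 5 cells.

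Gzma (granzyme A) and Il1r2 (a decoy receptor for interleukin 1) were the other 2. Gzma was at -3.40 ± 0.72 under the KO label and 1.05 ± 0.30 under the WT label, a difference of -4.44 ± 0.77 (adjusted p = 0.00188). In KO-labelled mice it had 64 UMIs in 5 negative cells, 36 of them in 1 cell of mouse 4, and without that mouse the difference was -2.81 with an adjusted p of 0.333. Il1r2 was at 0.83 ± 0.21 and -0.20 ± 0.10 (difference 1.03 ± 0.23, adjusted p = 0.0492). Its CPM rose in 4 of 5 KO-labelled mice, from 222, 174, 133, 228 and 317 to 526, 456, 313, 208 and 490. With cells thinned to 1000 or 2000 UMIs the difference fell to 0.38 and 0.63 and did not pass (adjusted p = 0.914 and 0.612).

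The same split was made in cells labelled cytotoxic, the CD4 cells that express granzymes and Nkg7, to see which changes went with Ifng there. It held 1559 Ifng-positive and 1921 Ifng-negative cells of the same 11 mice. The contrast differed between the clusters for 94 of 3947 genes (2.38%), with 28 higher and 66 lower in Th17 than in cytotoxic cells. The fold changes had opposite signs in 56 of these 94 genes. In this fit 91 genes (2.31%) passed in cytotoxic cells, 84 higher (2.13%) and 7 lower (0.177%), and 182 (4.61%) passed in Th17 cells, 73 higher (1.85%) and 109 lower (2.76%). Cytotoxic cells were shallower, with median depths before thinning of 2351 and 2574 UMIs under the KO and WT labels.

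Early response genes set the clusters apart. In cytotoxic cells 20 of 25 tested members of that list rose with Ifng and 0 fell, with a median of 0.46 beside 0.0015 in Th17 cells in the same fit, and the difference passed as lower in Th17 cells for 14. Junb stood at 3798, 4060.1 and 6333 CPM in Ifng-negative and at 4027, 5023 and 6877 CPM in Ifng-positive cytotoxic cells and was higher in all 11 mice (0.29 ± 0.04). In Th17 cells it went from 4922, 5537 and 6889 to 4231, 5257 and 6454 CPM and was higher in 1 of 11 mice (-0.17 ± 0.04). The difference was -0.46 ± 0.05 (adjusted p = 5.74e-09). Tnfaip3 (difference -0.38 ± 0.06), Bhlhe40, a transcription factor that promotes cytokine production (-0.34 ± 0.06), and Nfkbia, the NF-kappaB inhibitor (-0.40 ± 0.07), followed it (adjusted p = 5.63e-05, 6.9e-05 and 8.98e-05). Pim1, a kinase induced by cytokines, was at 0.56 ± 0.06 in cytotoxic and -0.02 ± 0.06 in Th17 cells (difference -0.58 ± 0.08, adjusted p = 1.23e-06).

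Other groups differed as well. Of 10 heat shock genes, 8 rose with Ifng in cytotoxic cells and 0 in Th17 cells, beside 2.13% and 1.85% of all genes. The 0 in Th17 cells lies near that share. The difference passed for 3 heat shock genes, among them Hsp90ab1 (-0.33 ± 0.07, adjusted p = 9.61e-04) and Dnajb1 (-0.82 ± 0.19, adjusted p = 0.00581). Gzmb rose by 0.60 ± 0.05 in cytotoxic cells against 0.20 ± 0.08 in Th17 cells (difference -0.40 ± 0.10, adjusted p = 0.0152). This difference hangs on the draw of the thinning. In the fit of Th17 cells alone, Gzmb was at 0.19 in this draw and at 0.41 in both others. The difference between clusters was not fitted in those draws. In the other direction, 0 of 14 glycolysis genes passed in cytotoxic cells, which lies near the 2.31% of all genes that passed there. The difference passed as higher in Th17 cells for Gapdh (0.24 ± 0.05) and Eno1 (0.56 ± 0.14) (adjusted p = 0.00323 and 0.0165).

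The fall of Zfp36l2 and the rise of Nkg7 also differed. Zfp36l2 was at 1060, 1253 and 1800 CPM in Ifng-negative and at 1023, 1405 and 1796 CPM in Ifng-positive cytotoxic cells (0.02 ± 0.06), so that the difference was -0.81 ± 0.12 (adjusted p = 4.7e-06). Nkg7 was at 1876, 2422 and 2667 against 1939, 2663 and 2827 CPM in cytotoxic cells (0.09 ± 0.06), already above the highest Th17 value of 1130 CPM, and the difference was 0.75 ± 0.13 (adjusted p = 8.58e-05). Actb, Anxa2 and Tmsb4x, an actin-binding peptide, had differences of 0.26 ± 0.05, 0.67 ± 0.14 and 0.17 ± 0.04 (adjusted p = 2.07e-04, 0.00117 and 0.00260). Of 79 ribosomal protein genes, 0 passed in cytotoxic cells, where 2.31% of all genes passed. Their median was -0.05 there beside -0.18 in Th17 cells, and the difference passed for 20, all lower in Th17 cells. Il2ra had close values, 0.80 ± 0.13 in Th17 and 0.83 ± 0.14 in cytotoxic cells (difference -0.03 ± 0.17, adjusted p = 0.990), as did Cd69 (0.35 ± 0.07 and 0.49 ± 0.06, adjusted p of the difference = 0.671). A p of this size does not show that they were equal.

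**Figure D5:**
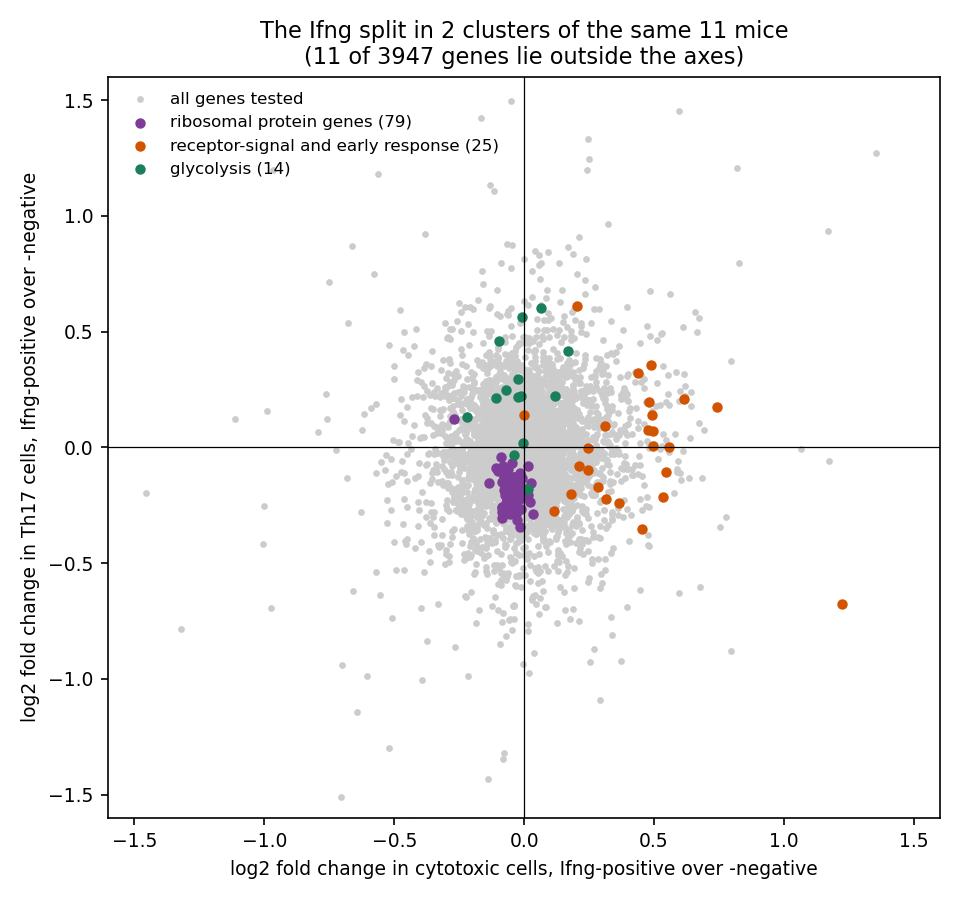
Log2 fold change between Ifng-positive and Ifng-negative cells in the cytotoxic cluster (x axis) and in the Th17 cluster (y axis) for 3947 genes in the same 11 mice, of which 11 lie outside the axes. The 25 early response genes lie mostly to the right of 0, and the 79 ribosomal protein genes lie mostly below 0.

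Clonal relation was read from the deposited receptor clonotypes, a measure that the split did not use. Cells of a mouse that shared a clonotype were counted as a clone. Among Ifng-positive Th17 cells with a clonotype, 38.7% ± 21.4 belonged to a clone also found among cytotoxic cells of the same mouse, against 29.6% ± 19.0 of Ifng-negative cells (SD, n = 11, higher in 9 mice and lower in 2, exact paired p = 0.00391, adjusted p = 0.0205 over 6 measures). The share in a clone of 2 or more cells of any label was 83.8% ± 9.33 against 79.3% ± 9.0 (higher in 8, exact p = 0.0273, adjusted p = 0.0410). The latter passed when the mouse left out was KO-labelled 4, WT-labelled 1 or WT-labelled 6 and not otherwise (adjusted p up to 0.0820, exact), whereas the former passed without each mouse in turn.

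Single clones held both kinds of cell. Of 287 clones with 2 or more Th17 cells, 167 (58.2%) held Ifng-positive and Ifng-negative cells, 24 held positive cells only and 96 negative cells only. All 29 clones with 10 or more Th17 cells held both. With 37.7% of all Th17 cells positive, clones of that size would be likely to hold both in any case, so this count tests nothing. In the 29 clones the positive share ran from 16.7% to 83.3%, with a median of 69.4% in 6 clones of KO-labelled mice and 38.5% in 23 clones of WT-labelled mice. Several of these clones share a mouse, so clones are not replicates of a label, and the medians were not tested. The largest clone had 43 Th17 cells, 31 of them positive.

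Depth and quality moved with the split. Before thinning, the median depth, averaged over mice, was 3454 ± 251 UMIs in Ifng-positive and 3272 ± 196 in Ifng-negative cells (SD, n = 11, higher in 9 mice, exact paired p = 0.0176, adjusted p = 0.0352, over the threshold without KO-labelled mouse 1, 5 or 6 or WT-labelled mouse 2, 3 or 5), and the number of genes per cell was 1442 ± 76.0 against 1395 ± 40.7 (exact p = 0.00684, adjusted p = 0.0205). The mitochondrial percent was 0.835 ± 0.0741 against 0.894 ± 0.0799 and the doublet score 0.0660 ± 0.0101 against 0.0720 ± 0.0150 (exact p = 0.0684 and 0.228, adjusted p = 0.0820 and 0.228, the first 0.0234 without KO-labelled mouse 4). Restricted to cells of 2500 to 4500 UMIs, 144 genes passed, 128 of them among the 180 and in the same direction. Markers of other cell types had few UMIs on both sides, apart from the regulatory and cytotoxic lists. The regulatory list summed to 3063 and 1960 UMIs and was higher on the positive side in 8 of 11 mice, but nearly all of these were of Ctla4 (2762 and 1649) and Il2ra (283 and 308), which activated T cells also express. Those of B and plasma cells summed to 1 and 2 UMIs, those of natural killer cells to 13 and 9, those of gamma-delta T cells to 147 and 92, those of epithelial cells to 69 and 46 and those of myeloid cells to 13 and 13 on the negative and positive side. The defining markers of CD8 and regulatory T cells, Cd8a and Foxp3, had 0 and 1 and 2 and 0 UMIs. The summed level of 6 markers of cytotoxic cells ran from 65.0 to 1533 CPM on the negative and from 23.1 to 1531 CPM on the positive side and was higher on the positive side in 6 of 11 mice. The part of these cells and of depth in the gene differences was not tested beyond these values.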

How the data were processed

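The authors deposited raw UMI counts of 11971 genes in 18860 cells and an annotation of mouse, genotype, subset and clonotype, with a doublet score and a mitochondrial percent per cell. The submitters' processing notes name Cell Ranger 3.1.0, Seurat 3.1.5 and the builds GRCm38 and mm10. Cell filters, removal of doublets and use of strand are not given in the sources used here, and no doublet caller was run. All 18860 genotypes matched the hashtag table, and no barcode was repeated.

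Cells were thinned without replacement to 1500 UMIs. UMIs other than Ifng were summed per mouse and side and fitted with edgeR 4.0.16 (R 4.3.3, TMM, filterByExpr, two-sided quasi-likelihood tests) with the mouse as a block, since both sides come from the same mouse. Calls are at a Benjamini-Hochberg adjusted p under 0.05, and the SE is the log2 fold change over the square root of F. Shares and quality were compared by exact sign flips within mice or exact permutations of mice, two-sided. Donors are not named, so p-values measure the spread between these mice, which may share donor cells.

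Members, lists and tests were chosen with earlier results of these data known. Named were a panel of 20 genes, the 12 largest rises and falls past the threshold that moved 1 way in every mouse with a mean log2 CPM of 5 or more (receptor segments and unnamed models passed over), and up to 4 genes per list and per direction of each difference between genotypes or subsets. Some genes that these rules name are counted but not reported here. Further list members, and the ribosomal protein genes as a group, were chosen after their values were seen. Alternatives were DESeq2 1.42.0 (size factors and test), no filter, no block, other depths, draws, thresholds and cell numbers, doublet scores, and each mouse left out. Chosen after seeing the data were a negative side without Ifng UMIs before thinning, a band of depth, sums without ribosomal protein genes, the comparison of the Il17a difference between genotypes and the share without KO-labelled mouse 2.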

Additional observations from a re-analysis of the deposited data

Results flagged for a closer look

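The difference between Ifng-positive and Ifng-negative cells itself differed between KO-labelled and WT-labelled mice, by a test of the interaction, for 3 genes. The differences, KO-labelled minus WT-labelled on the log2 scale, were 1.39 for Il17a, 1.03 for Il1r2 and -4.44 for Gzma. Each lost its call without at least 1 mouse: Il17a without KO-labelled mouse 1 or 3, Gzma without KO-labelled mouse 4, and Il1r2 without any 1 of 7 mice. In 72 groups of 5 or 6 mice looked at for a mouse far from the others, covering shares, quality measures and log2 ratios of named genes, 0 mice stood apart, where chance alone would mark about 1 group in 20.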

How the results depend on the processing

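Against 180 genes called, the count was 345 without thinning and 85 without ribosomal protein UMIs, where 62 ribosomal calls drop out by construction. The count stayed within 1.5 times under every other alternative but the block. With the mouse block that pairs the sides removed, 62 genes passed, 61 of them among the 180, and Csf2 and Il22 lost their calls (adjusted p = 0.0548 and 0.422). Leaving out each mouse gave 135 to 172. The calls were less stable than their number: 115 and 130 of the 180 were called in the same direction in the other 2 random draws. In KO-labelled mice, 34 became 61 at 2000 UMIs and 66 without thinning (15 to 38 with a mouse left out). In WT-labelled mice, 160 became 335 without thinning (108 to 154). For the difference between genotypes, 3 became 6 without a filter and 9 at 2000 UMIs (1 to 4, the 1 without KO-labelled mouse 3). The difference between clusters held 70 to 94 calls with a mouse left out. Nr4a1 turned to -0.18 without thinning (adjusted p = 0.0423). The Ifng-positive share difference ran from 9.97 to 18.9 percentage points with a mouse left out. Between sides, leaving out a mouse gave 134 to 217 UMIs of depth, 3.77 to 5.17 percentage points for clones of 2 or more cells and -0.0775 to -0.047 for the mitochondrial percent, which at 2000 UMIs was -0.0691 and passed. Except where the construction shows it, as with fewer UMIs or genes, the cause was not tested. Depth limits the split, since 45.9% of positive cells held 1 Ifng UMI.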

Other observations

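Ifng-positive cells were also found in the other deposited subsets. After thinning they were 38.5% and 46.3% of cytotoxic cells in KO-labelled and WT-labelled mice, 27.7% and 23.5% of recirculating cells and 40.4% and 37.8% of cycling cells. In the unnamed subset they were 37.9% (1949 of 5145 cells) and 37.7% (521 of 1381). Th17 cells, at 50.7% and 33.3%, lay above all of these under the KO label. Under the WT label they lay below cytotoxic, cycling and unnamed cells. These shares are over cells pooled from the mice of a label and were not tested. Il17a UMIs were found in 5.32% and 4.79% of cycling cells and in 1.89% and 1.36% of recirculating cells.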
